A study of Rattus norvegicus with 19 samples.

Results

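The 9 genes described here carry, move, activate, inactivate, sense or answer to thyroid hormone: Ttr, Serpina7, Slc16a10, Dio1, Dio3, Thra, Thrb, Thrsp and Klf9. They were chosen by name, as the genes whose symbol the array's annotation gives to a probe set (a group of short probes that reads 1 transcript), and they are 9 of the 14217 genes measured. Together they have 18 probe sets with 1 symbol, of which the brightest over all arrays stands for the gene. The study dosed timed-mated Wistar Han rats (Crl:WI(Han)) with DE-71, a flame retardant mixture of pentabromodiphenyl ethers, and measured liver RNA on postnatal day 4 on 19 Affymetrix arrays. Dams were gavaged daily from gestation day 6 with corn oil alone (vehicle, 5 arrays) or with DE-71 in corn oil at 0.1 mg/kg (5 arrays), 15 mg/kg (4 arrays) or 50 mg/kg (5 arrays) per day. The RNA came from the left lateral lobe, and the labels do not say whether it was of dams or pups, or whether the arrays of a group were separate litters. All values are log2 signals, on which 1 unit is a 2-fold difference.

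Thyroid hormone circulates bound to transthyretin (Ttr), thyroxine-binding globulin (Serpina7) and albumin, most of which the liver secretes. Inside cells Dio1 removes an iodine from the outer ring of thyroxine, which yields the active hormone T3, or from the inner ring, while Dio3 only inactivates. T3 binds the nuclear receptors made from Thra and Thrb, of which Thrb is the main form of adult liver, and these act on target genes such as Thrsp, Me1 and Klf9. In the rat Serpina7 is known as a carrier of early postnatal life.

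The tissue and the arrays were checked first. Hepatocyte markers (7 of 8 listed were measured) had a mean signal of 14.19 to 14.32 on all 19 arrays, and thyroid gland markers (3 of 4 measured) lay at 4.22 to 4.81. The labels give the sex as female, yet the Y-linked transcripts Eif2s3y and Uty read 9.55 to 10.07 and 9.46 to 10.03 on all arrays and Xist 3.88 to 4.29. The fetal liver protein Afp read 14.56 to 14.66 in vehicle and 14.47 to 14.62 at 50 mg/kg. Dams carry no Y chromosome, so these values go with liver of male pups, which the labels do not state. Vehicle replicate 2 and 0.1 mg/kg replicate 2 differed by over 2-fold in 1 of 31042 probe sets, against at least 78 for any other of the 171 pairs of arrays. Their kidney markers (6 of 7 measured) read 9.38 and 9.39, against 4.97 to 5.29 on 16 of the other arrays and 7.29 on 50 mg/kg replicate 3. Exocrine pancreas markers (9 of 9 measured) read 8.52 and 8.49 on that pair, 7.33 on vehicle replicate 4, 7.94 on 15 mg/kg replicate 5 and 5.12 to 5.44 elsewhere. Skeletal muscle markers (8 of 9 measured) were highest on vehicle replicates 1 and 5 (11.09 and 8.75) and 50 mg/kg replicates 2 and 3 (9.27 and 8.92). The library labelled 0.1 mg/kg replicate 1 had a Cyp1a1 signal of 14.06, where the rest of its group read 7.19 to 8.42. The 15 mg/kg arrays read 13.16 to 14.17 and the 50 mg/kg arrays 14.11 to 14.30. Vehicle replicate 2 and 0.1 mg/kg replicates 1 and 2 are called the 3 arrays that stand apart. Results that rest on them are given with and without them. Of the arrays numbered 1 to 8 by the submitters, 4 are of the 50 mg/kg group and 1 of each other group, so values are also given within the early (1 to 8) and late (9 to 20) arrays.

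None of the 9 genes passed the test in any comparison: 0 of 9 at 0.1, 15 or 50 mg/kg against vehicle, 0 of 9 at 50 against 15 mg/kg, and 0 of 9 in the test of any difference among the 4 groups (limma, Benjamini-Hochberg adjusted over all probe sets, threshold 0.05). Over all genes the share that passed was 0% at 0.1 mg/kg, 0% at 15 mg/kg, 2.23% at 50 mg/kg, 0% at 50 against 15 mg/kg and 0.556% for any difference. At an unadjusted p under 0.05 the counts were 0 of 9 at 0.1 mg/kg (1.98% of all genes), 0 of 9 at 15 mg/kg (9.92%), 4 of 9 at 50 mg/kg (17.3%), 3 of 9 at 50 against 15 mg/kg (8.35%) and 3 of 9 for any difference (11.9%). The 4 at 50 mg/kg were Ttr, Serpina7 and Klf9, with lower means, and Thrsp, with a higher mean. Smallest among the adjusted p-values at 50 mg/kg was 0.106, for Thrsp. The median log2 difference of the 9 was -0.19, the value of Thra, with 3 differences above 0 and 6 below. The median of all genes was 0.01.

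**Figure D1:**
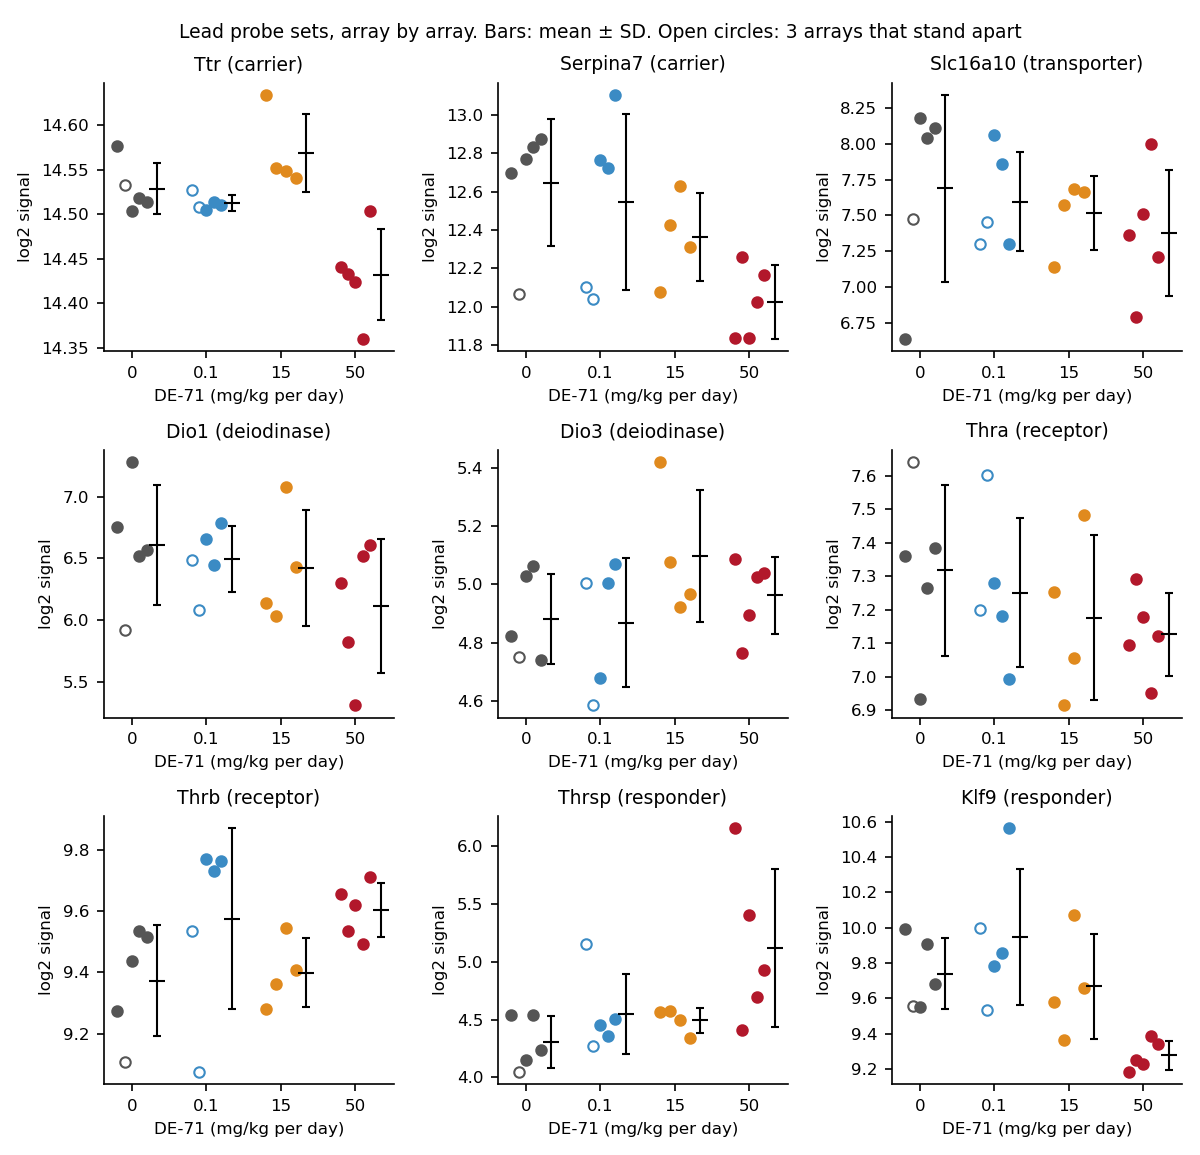
Log2 signal (vertical axes) of the lead probe set of each gene on every array, by dose of DE-71 in mg/kg per day (horizontal axes, 0 is vehicle). Circles are arrays, open where the array stands apart, and bars are the mean ± SD of the group. Klf9 at 50 mg/kg lies between 9.18 and 9.39, below all vehicle arrays, and Serpina7 has 1 vehicle array at 12.06 among others at 12.70 to 12.87.

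Of the 9 genes, only Slc16a10 had an exact AGGTCA in the 250 bases searched. Looser matches and bases farther upstream were not searched. Promoters are shown for the 3 genes with the smallest unadjusted p at 50 mg/kg, and for Slc16a10. Each is the 250 bases before the RefSeq start in build GRCr8, 5′ to 3′ on the gene's strand. Capitals mark matches, on either strand, to AGGTCA (the half-site of nuclear receptors), GCGTG (the core bound by the aryl hydrocarbon receptor) or CCAAT.
Serpina7 (chrX:107457682-107457931, minus strand): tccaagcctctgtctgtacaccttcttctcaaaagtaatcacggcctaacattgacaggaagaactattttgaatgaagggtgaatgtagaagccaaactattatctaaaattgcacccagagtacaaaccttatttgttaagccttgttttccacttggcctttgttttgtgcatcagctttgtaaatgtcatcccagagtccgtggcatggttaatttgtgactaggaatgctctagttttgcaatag
Klf9 (chr1:230126396-230126645, plus strand): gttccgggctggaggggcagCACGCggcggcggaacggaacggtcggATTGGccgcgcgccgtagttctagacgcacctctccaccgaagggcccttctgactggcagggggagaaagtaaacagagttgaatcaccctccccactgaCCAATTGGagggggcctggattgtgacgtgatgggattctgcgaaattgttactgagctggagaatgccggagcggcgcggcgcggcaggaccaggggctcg
Thrsp (chr1:161138965-161139214, minus strand): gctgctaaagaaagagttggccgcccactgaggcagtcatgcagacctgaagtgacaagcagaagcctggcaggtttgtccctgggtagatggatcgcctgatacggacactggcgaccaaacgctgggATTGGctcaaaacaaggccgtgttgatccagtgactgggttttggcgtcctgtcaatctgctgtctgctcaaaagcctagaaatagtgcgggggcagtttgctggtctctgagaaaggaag
Slc16a10 (chr20:45122359-45122608, minus strand): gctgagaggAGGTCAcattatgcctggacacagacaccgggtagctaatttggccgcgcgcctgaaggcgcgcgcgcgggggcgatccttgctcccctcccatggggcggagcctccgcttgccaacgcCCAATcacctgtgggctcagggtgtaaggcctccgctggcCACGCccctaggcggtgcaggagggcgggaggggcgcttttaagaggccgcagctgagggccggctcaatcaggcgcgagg
Among 33469 RefSeq promoters of this length the half-site is in 14.1%, GCGTG in 25.9% and the CCAAT box in 34%. For Slc16a10 the half-site begins at position -241 from the start. The receptor core was found for Klf9 (-230), Slc16a10 (-81) and Thrb (-53), and the CCAAT box for Dio3, Klf9, Slc16a10 and Thrsp. Klf9 has 3 CCAAT matches, of which a forward and a reverse match overlap in the run CCAATTGG. Serpina7 has none of these letters in this window.

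Serpina7 (probe set 1371143_at), the thyroxine-binding globulin, had a lower mean at 50 mg/kg, which passed the test in some settings, among them both fits without the arrays that stand apart. Vehicle arrays read 12.70, 12.06, 12.77, 12.83 and 12.87 for replicates 1 to 5, so replicate 2 was far below the other 4. At 0.1 mg/kg the signals were 12.10, 12.04, 12.77, 12.72 and 13.10, low on the 2 arrays that stand apart. The 15 mg/kg arrays, replicates 2 to 5, gave 12.08, 12.43, 12.63 and 12.31. At 50 mg/kg the signals were 11.83, 12.26, 11.83, 12.02 and 12.16, which overlap vehicle only through vehicle replicate 2. The means were 12.65 ± 0.333 in vehicle and 12.02 ± 0.192 at 50 mg/kg (SD, n = 5 each), a log2 difference of -0.62 (SE 0.194, 95% interval -1.03 to -0.22, limma adjusted p = 0.117).

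Without the 3 arrays that stand apart, a choice made after the values were seen, Serpina7 passed. Vehicle was then 12.79 ± 0.0776 (SD, n = 4) and the difference at 50 mg/kg -0.77 (SE 0.119, 95% interval -1.02 to -0.52, limma adjusted p = 0.004) and a level 1.71-fold lower, with no overlap between the groups once vehicle replicate 2 is gone, as in 2.39% of all genes without these arrays. The 15 mg/kg arrays did not overlap vehicle then either, as in 2.37%. In that fit 0.492% of all genes passed as lower at 50 mg/kg, and 1.26% passed the test of any difference. At 15 mg/kg the difference was -0.43 (adjusted p = 0.391), at 0.1 mg/kg 0.07, and the test of any difference gave an adjusted p of 0.00695. Leaving out vehicle replicate 2 alone gave the same difference at 50 mg/kg with an adjusted p of 0.0597. Over 25 alternatives the adjusted p ran from 0.004 to 0.405 and passed in 3. The highest value, with a difference of -0.47, came from a block of early against late arrays with all arrays kept, and the same block without the 3 arrays gave -0.65 and an adjusted p of 0.0295. Within the early arrays (1 vehicle, 4 at 50 mg/kg) the difference was -0.71, and within the late arrays (4 vehicle, 1 at 50 mg/kg) -0.47.

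Markers of other cells moved with Serpina7 from array to array. After the mean of each dose group was taken away, Serpina7 correlated over 19 arrays with the endothelial markers Pecam1, Stab2, Lyve1 and Kdr (Pearson r = 0.84, permutation adjusted p = 0.000292; Spearman rho = 0.88, permutation adjusted p = 0.000585; 117 relations of genes with marker lists tested). Without the 2 arrays farthest out r was 0.75, within the late arrays 0.95, and without the arrays that stand apart 0.67. Of the 117 relations 14 passed by Pearson's r, and each is given beside its gene. The permutations count the near-identical pair as 2 separate arrays, so these p-values can be too small. Serpina7 ran against the kidney markers (r = -0.71, permutation adjusted p = 0.0135; rho = -0.55, permutation adjusted p = 0.148), with -0.93 within the late arrays. That relation rests on few arrays: r was -0.38 without the 2 farthest and -0.39 without the arrays that stand apart, vehicle replicate 2 among them. Endothelial marker levels themselves ranged from 9.76 to 10.25 in vehicle and from 9.78 to 10.12 at 50 mg/kg. In whole liver fewer cells of a type and less RNA per cell cannot be told apart, and the part of cell makeup in the Serpina7 difference was not tested.

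Ttr (1367598_at), transthyretin, read 14.58, 14.53, 14.50, 14.52 and 14.51 on the vehicle arrays and 14.53, 14.51, 14.51, 14.51 and 14.51 at 0.1 mg/kg. It read 14.63, 14.55, 14.55 and 14.54 at 15 mg/kg and 14.44, 14.43, 14.42, 14.36 and 14.50 at 50 mg/kg. The 50 mg/kg arrays lie below all 15 mg/kg arrays, as in 1.03% of all genes, and overlap vehicle in 1 array. The differences were -0.10 against vehicle (SE 0.0444, 95% interval -0.19 to -0.00, limma adjusted p = 0.307) and -0.14 against 15 mg/kg (adjusted p = 0.496). Against vehicle it was -0.16 within the early and -0.01 within the late arrays. These signals stand at the top of the array's range, where folds can read too low. Over all 19 arrays Ttr ran from 14.36 to 14.63, the narrowest range of the 9 genes.

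Slc16a10 (1370548_at), a transporter of aromatic amino acids and of T3, spread widely within groups. Vehicle arrays read 6.64, 7.47, 8.18, 8.04 and 8.11, and those at 0.1 mg/kg 7.30, 7.45, 8.06, 7.86 and 7.30. At 15 mg/kg the signals were 7.14, 7.57, 7.69 and 7.67, and at 50 mg/kg 7.36, 6.79, 7.51, 8.0 and 7.21. All groups overlap, and at 50 mg/kg the difference was -0.31 (95% interval -0.88 to 0.25, limma adjusted p = 0.603). It was -0.58 without vehicle replicate 1, -0.47 without 50 mg/kg replicate 4, -0.19 without vehicle replicate 3 and -0.17 without 50 mg/kg replicate 2. Its sign differed between early arrays (0.78) and late arrays (-0.75). Vehicle replicate 1 is the only vehicle array among the early ones, and the late ones hold 1 array at 50 mg/kg.

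From array to array Slc16a10 moved with markers of red cell precursors, which the liver harbours around birth. With the mean of erythroid markers (Hbb, Alas2, Epb42, Rhag and Ahsp, 5 of 6 listed) it correlated at r = 0.96 (permutation p = 1e-05, the smallest these permutations can give, adjusted p = 0.000292) and rho = 0.93 (permutation adjusted p = 0.000585) over 19 arrays, group means removed. Leaving out the 2 farthest arrays gave r = 0.92, the late arrays 0.95, and the arrays without those that stand apart 0.97. Neutrophil markers (3 of 7 listed were measured) moved with it too (r = 0.76, permutation adjusted p = 0.0014; rho = 0.68, permutation adjusted p = 0.0287). That r was 0.54 without the 2 farthest arrays, 0.19 within the late arrays and 0.89 without the arrays that stand apart. Stellate cell markers ran the other way (r = -0.62, permutation adjusted p = 0.0416; rho = -0.58, permutation adjusted p = 0.126), with -0.38, -0.31 and -0.61 in the same order. Vehicle replicate 1 has both the lowest erythroid level, 9.63, and the lowest Slc16a10, 6.64. The erythroid level was 9.63 to 11.41 in vehicle and 9.72 to 11.48 at 50 mg/kg. Ttr ran the other way: its r with the erythroid markers was -0.65 (permutation adjusted p = 0.0327) and with Slc16a10 -0.69 (permutation adjusted p = 0.0187; rho = -0.75, permutation adjusted p = 0.00576), and without the arrays that stand apart -0.66 and -0.70.

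**Figure D2:**
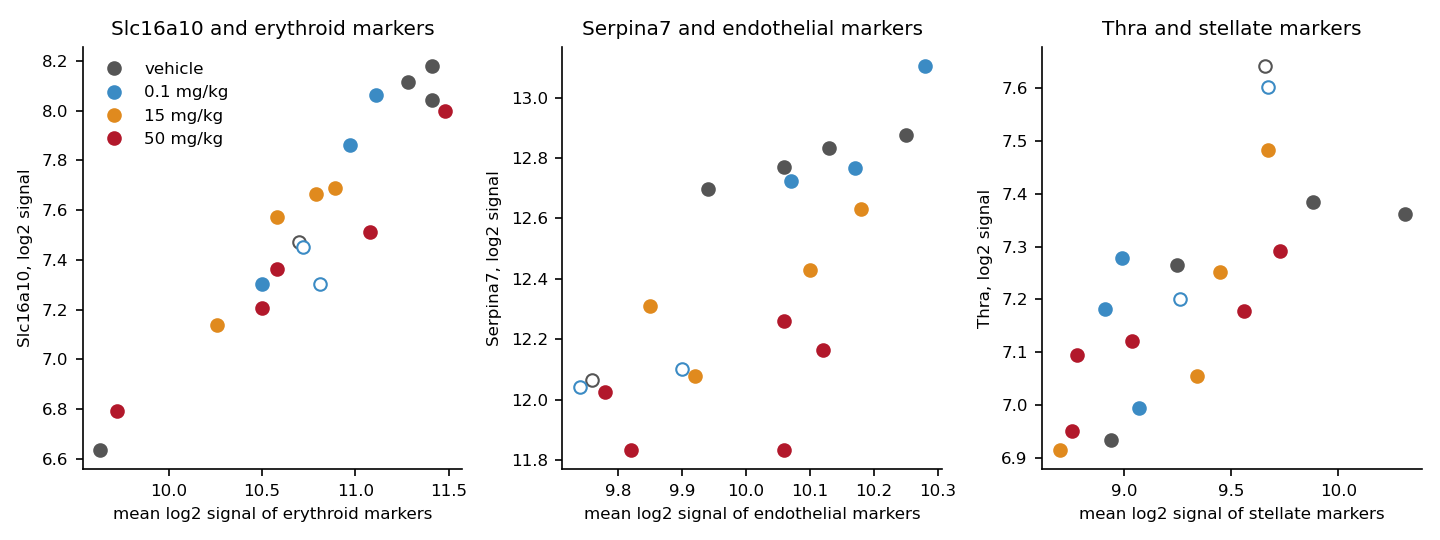
Log2 signal of Slc16a10, Serpina7 and Thra (vertical axes) against the mean log2 signal of erythroid, endothelial and stellate cell markers (horizontal axes) on 19 arrays, with colour for dose and open circles for the arrays that stand apart. Slc16a10 increases along the erythroid axis (r = 0.96 with group means removed). The 50 mg/kg arrays have low Serpina7 on the vertical axis, at endothelial levels of 9.78 to 10.12, where vehicle spans 9.76 to 10.25.

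Of the deiodinases, neither passed the test at any dose. Dio1 (1369259_at) read 6.75, 5.92, 7.28, 6.52 and 6.56 in vehicle, 6.49, 6.08, 6.66, 6.45 and 6.79 at 0.1 mg/kg, 6.13, 6.03, 7.08 and 6.43 at 15 mg/kg and 6.30, 5.82, 5.31, 6.52 and 6.61 at 50 mg/kg. The lowest was 50 mg/kg replicate 3, an array with raised muscle (8.92), fat (7.67) and kidney (7.29) markers, and the groups overlap. At 50 mg/kg the difference was -0.50 (SE 0.266, 95% interval -1.06 to 0.06, limma adjusted p = 0.384), with -0.77 within the early and 0.04 within the late arrays. It was -0.67 (adjusted p = 0.247) without the arrays that stand apart, -0.30 without 50 mg/kg replicate 3 and -0.33 without vehicle replicate 3. Dio1 ran against the kidney markers (r = -0.63, permutation adjusted p = 0.0306; rho = -0.44, permutation adjusted p = 0.242), with -0.41 without the 2 farthest arrays, -0.65 within the late arrays and -0.60 without those that stand apart. Dio3 (1387509_at) had signals of 4.74 to 5.06 in vehicle, 4.58 to 5.07 at 0.1 mg/kg, 4.92 to 5.42 at 15 mg/kg and 4.76 to 5.09 at 50 mg/kg. Its difference at 50 mg/kg was 0.08 (95% interval -0.16 to 0.32, adjusted p = 0.767).

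The lead probe sets of both receptors overlapped between vehicle and every dose when all arrays were kept. Thra (1367726_at) read 6.93 to 7.64 in vehicle, 6.99 to 7.60 at 0.1 mg/kg, 6.91 to 7.48 at 15 mg/kg and 6.95 to 7.29 at 50 mg/kg, with a difference at 50 mg/kg of -0.19 (SE 0.132, limma adjusted p = 0.512). It was -0.11 without vehicle replicate 2 as well as without all arrays that stand apart, and -0.29 without vehicle replicate 3. Its other probe sets disagreed in sign: -0.51 (adjusted p = 0.248) for 1370691_a_at and 0.27 (adjusted p = 0.0944) for 1380518_s_at, whose signals of 3.06 to 3.67 are among the lowest on the array. In that last set all 50 mg/kg arrays (3.45 to 3.67) lay above all vehicle arrays (3.06 to 3.39), as in 3.21% of all probe sets. The highest Thra signals, 7.64 and 7.60, were on the near-identical arrays of vehicle and 0.1 mg/kg replicate 2. Thra correlated with markers of stellate cells, the vitamin A storing cells of the liver (7 of 7 measured; r = 0.73, permutation adjusted p = 0.00953; rho = 0.78, permutation adjusted p = 0.00526), with 0.62 without the 2 farthest arrays, 0.84 within the late arrays and 0.77 without the arrays that stand apart. With bile duct markers, which read high on a few arrays, it had a larger r (0.82, permutation adjusted p = 0.000292; rho = 0.71, permutation adjusted p = 0.0193), with 0.78, 0.89 and 0.68 in the same order. By Pearson's r alone it also moved with exocrine pancreas (0.74, permutation adjusted p = 0.0037), islet (0.66, permutation adjusted p = 0.0232) and kidney markers (0.61, permutation adjusted p = 0.0428), which without the arrays that stand apart gave 0.51, 0.56 and 0.04. The stellate list also holds the matrix genes Dcn, Col1a1 and Col3a1. Within vehicle Dcn (8.46 to 11.60) and Col1a1 (8.82 to 11.94) varied most, while Lrat read 8.53 to 9.75 and Reln 11.03 to 11.69. Its mean was highest on vehicle replicate 1 (10.31), where skeletal muscle markers read 11.09. The part of these cells and tissues in the Thra values was not tested.

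Thrb (1394456_at) read 9.27, 9.11, 9.44, 9.53 and 9.51 in vehicle and 9.54, 9.07, 9.77, 9.73 and 9.76 at 0.1 mg/kg. The 15 mg/kg arrays gave 9.28, 9.36, 9.55 and 9.41, and the 50 mg/kg arrays 9.66, 9.54, 9.62, 9.49 and 9.71. The lowest signals of both low groups were again on the near-identical pair. At 50 mg/kg the difference was 0.23 (SE 0.118, 95% interval -0.02 to 0.48, limma adjusted p = 0.359), and 0.17 (adjusted p = 0.307) without the arrays that stand apart. It was 0.08 for the mean of the gene's probe sets. Without those arrays the 0.1 mg/kg arrays (9.73 to 9.77) lay above all vehicle arrays (9.27 to 9.53), as in 3.95% of all genes, by 0.32 (adjusted p = 0.974). The 3 other Thrb probe sets differed by 0.01 to 0.08. Thrb correlated with Serpina7 (r = 0.77, permutation adjusted p = 0.00144; rho = 0.75, permutation adjusted p = 0.00576; 36 pairs of the 9 genes tested), with 0.63 when the 2 farthest arrays were left out, 0.93 within the late arrays and 0.40 without the arrays that stand apart. Like Serpina7 it correlated with the endothelial markers (r = 0.81, permutation adjusted p = 0.000292, and 0.66 without the arrays that stand apart), and against the kidney markers (r = -0.76, permutation adjusted p = 0.0135; rho = -0.49, permutation adjusted p = 0.215). The kidney relation rests on the arrays that stand apart: it was -0.94 within the late arrays, -0.27 without the 2 farthest and 0.04 without the arrays that stand apart.

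**Figure D3:**
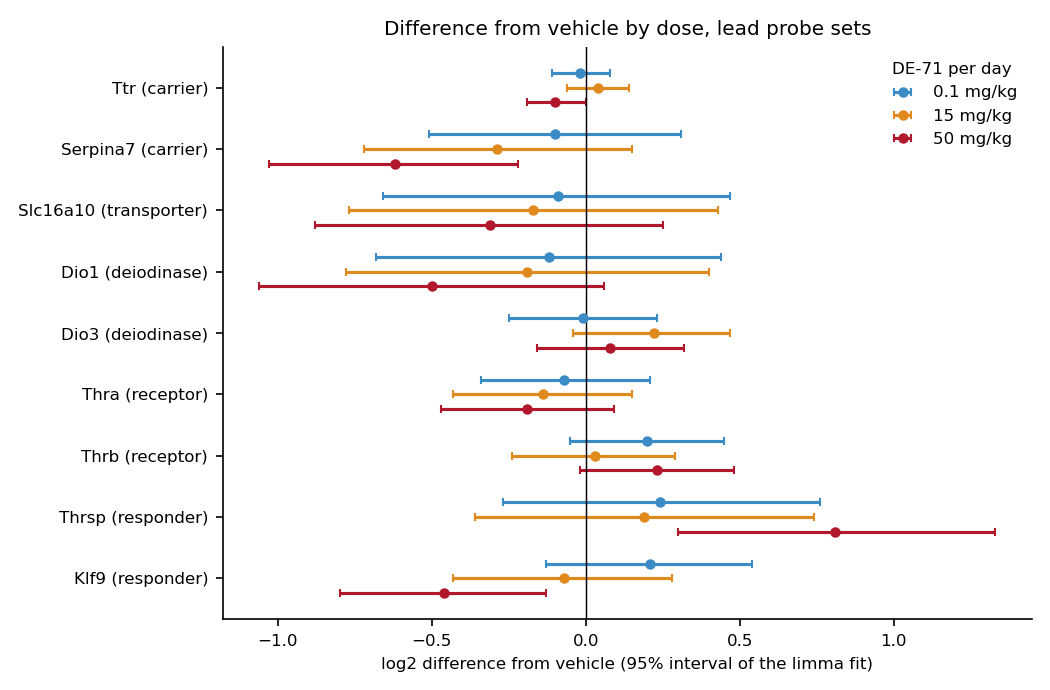
Log2 difference from vehicle (horizontal axis) of the lead probe set of the 9 genes at 0.1, 15 and 50 mg/kg, with 95% intervals of the limma fit. At 50 mg/kg the intervals of Serpina7, Klf9, Ttr and Thrsp leave out 0, and none of the adjusted p-values is under 0.05.

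Neither of the 2 responders passed the test, and their mean differences at 50 mg/kg had opposite signs. Thrsp (1371400_at), which encodes a nuclear protein of lipid synthesis also called Spot 14, read 4.54, 4.05, 4.15, 4.54 and 4.24 in vehicle and 5.15, 4.27, 4.45, 4.36 and 4.51 at 0.1 mg/kg. It read 4.56, 4.58, 4.50 and 4.34 at 15 mg/kg, and at 50 mg/kg 6.16, 4.41, 5.40, 4.70 and 4.93. Replicate 1 is by far the highest at 50 mg/kg, and only replicate 2 lies within the vehicle range. The means were 4.31 ± 0.228 and 5.12 ± 0.686 (SD, n = 5 each), a difference of 0.81 (SE 0.246, 95% interval 0.30 to 1.33, limma adjusted p = 0.106), and 0.55 without 50 mg/kg replicate 1. The fat markers read 5.32 on that array and 7.67 on replicate 3, and 5.20 to 5.49 on the other arrays. Both other Thrsp probe sets were higher too, by 0.72 (adjusted p = 0.256) and 0.48 (adjusted p = 0.183). All Thrsp signals are low, where folds can also read too small. Within the early arrays the difference was 0.62, and within the late arrays 0.68.

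Klf9 (1370209_at), a zinc finger repressor that T3 and glucocorticoids induce, read 10.00, 9.56, 9.55, 9.91 and 9.68 in vehicle and 10.00, 9.53, 9.79, 9.85 and 10.56 at 0.1 mg/kg. The 15 mg/kg signals were 9.58, 9.36, 10.07 and 9.66, and at 50 mg/kg 9.18, 9.25, 9.23, 9.39 and 9.34. All 50 mg/kg arrays lie below all vehicle arrays, as in 1.48% of all genes. The means were 9.74 ± 0.202 and 9.28 ± 0.0834 (SD, n = 5 each), a difference of -0.46 (SE 0.158, 95% interval -0.80 to -0.13, limma adjusted p = 0.158). Over 25 alternatives the adjusted p ran from 0.0512 to 0.427 and never passed. The difference was -0.73 within the early and -0.34 within the late arrays, and -0.51 (adjusted p = 0.135) without the arrays that stand apart. The other Klf9 probe sets gave smaller differences, -0.12 for 1387882_at and 0.00 for 1390076_at, at mean signals of 5.90 and 3.87 where the lead set has 9.66.

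**Figure D4:**
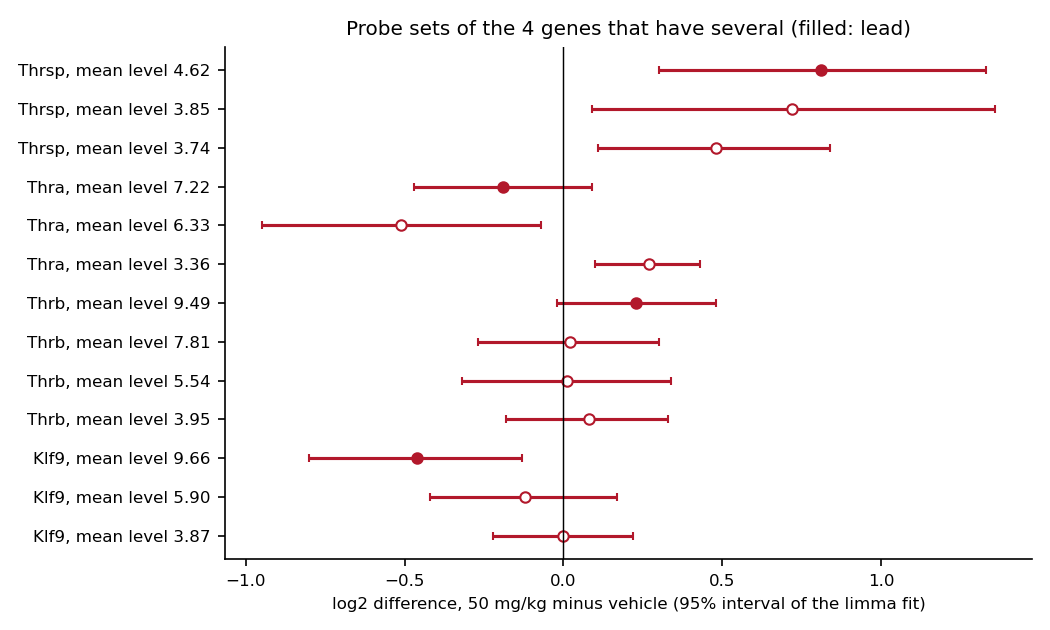
Log2 difference between 50 mg/kg and vehicle (horizontal axis, bars are 95% intervals of the limma fit) for every probe set of Thrsp, Thra, Thrb and Klf9, each named with its mean log2 signal over 19 arrays. The 3 Thrsp sets lie at 0.48 to 0.81, whereas those of Klf9 and Thra do not lie together.

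Other genes of the pathway were read from a list of 59, of which 53 were measured. The list was chosen with earlier results of these data known. Its counts therefore describe the listed genes and do not test whether the pathway responded. At 50 mg/kg 3 of the 53 rose and 0 fell, where 1.79% of all genes rose and 0.443% fell (limma, adjusted p under 0.05). At an unadjusted p under 0.05 the count was 13 of 53 (17.3% of all genes). No gene of the list passed at 0.1 mg/kg, at 15 mg/kg or at 50 against 15 mg/kg. There 1, 4 and 2 of the 53 had an unadjusted p under 0.05 (limma), against 1.98%, 9.92% and 8.35% of all genes. By role, the genes that rose at 50 mg/kg were 1 of 4 conjugating enzymes, 1 of 11 receptor partners and coregulators and 1 of 19 responders. None of 8 uptake transporters, 4 other carriers and binders or 7 genes of deiodination and selenoprotein supply passed. Of these, 0, 0 and 2 had an unadjusted p under 0.05, against 17.3% of all genes.

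Me1, the cytosolic malic enzyme that supplies NADPH for fat synthesis and a textbook target of T3, rose most. Vehicle arrays read 7.23, 7.41, 7.40, 7.11 and 7.32, those at 15 mg/kg 7.78, 7.80, 7.67 and 7.91, and those at 50 mg/kg 8.77, 8.31, 9.0, 8.56 and 7.94. The 50 mg/kg arrays lie above all others except the library labelled 0.1 mg/kg replicate 1, at 8.03, which exceeds 50 mg/kg replicate 5. In 3.21% of all probe sets the 50 mg/kg arrays lay above all vehicle arrays. The rise at 50 mg/kg was 1.22 (SE 0.179, limma adjusted p = 0.00249), or 2.33-fold, and at 15 mg/kg the difference was 0.50 (adjusted p = 0.45). It passed in 25 of 25 alternatives, the block of early and late arrays included (1.01, adjusted p = 0.0284). Other genes of fat synthesis on the list did not pass at 50 mg/kg, with differences of -0.06 for Fasn, 0.04 for Acaca, 0.20 for Acacb, 0.03 for Srebf1 and 0.13 for Mlxipl.

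Ugt2b1, a glucuronosyltransferase of steroids and xenobiotics, read 12.93, 12.86, 12.85, 12.68 and 12.56 in vehicle and 13.86, 13.68, 13.82 and 13.52 at 15 mg/kg. At 50 mg/kg it read 13.83, 13.87, 13.74, 13.79 and 13.83, above all vehicle arrays, as in 3.21% of all probe sets. Its rise was 1.04 (SE 0.142, limma adjusted p = 0.00131), again in 25 of 25 alternatives. The difference at 15 mg/kg was 0.95 (adjusted p = 0.0724), and 0.97 (adjusted p = 0.00132) without the arrays that stand apart, one of which, the library labelled 0.1 mg/kg replicate 1, read 13.73. Tbl1xr1, part of the corepressor complex of nuclear receptors, rose by 0.33 (SE 0.0788, limma adjusted p = 0.0395), but passed in only 7 of 25 alternatives and had an adjusted p of 0.0691 without the arrays that stand apart.

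Of the list's genes that did not pass, 3 had the largest differences at 50 mg/kg. Fgf21, a liver hormone, differed by -1.07 (limma adjusted p = 0.514) and ranged from 6.56 to 10.97 within vehicle. The difference was -0.55 without vehicle replicate 4, -1.65 without vehicle replicate 5 and -1.27 without the arrays that stand apart. Crym, a cytosolic T3 binder, differed by -1.0 (adjusted p = 0.449), with a vehicle range of 6.34 to 9.50, and by -0.46 (adjusted p = 0.555) without the arrays that stand apart. Sult1b1, a sulfotransferase of thyroid hormones, was 10.84 to 11.82 in vehicle and 12.24 to 12.80 at 50 mg/kg. These groups did not overlap, as in 3.21% of all probe sets. The Sult1b1 difference of 1.03 (limma adjusted p = 0.108) was 1.08 with an adjusted p of 0.0167 without the arrays that stand apart.

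**Figure D5:**
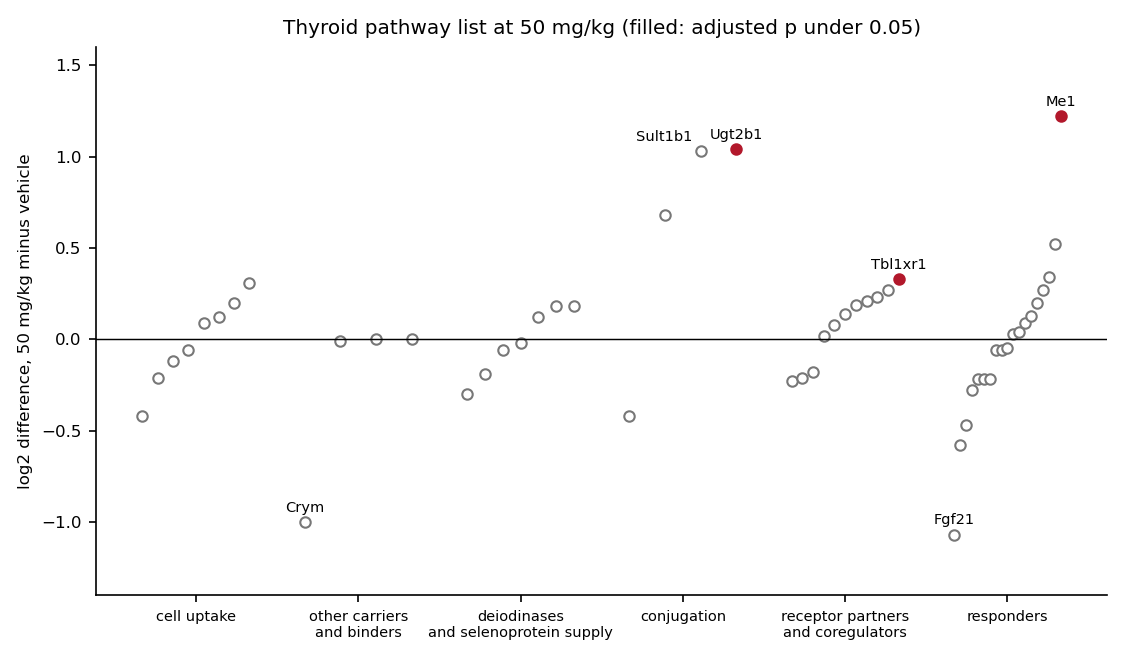
Log2 difference between 50 mg/kg and vehicle (vertical axis) of 53 genes of the thyroid pathway list, by role (horizontal axis). Filled points are Ugt2b1, Tbl1xr1 and Me1, whose adjusted p is under 0.05, and the largest differences among the open points are named.

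The genes most like each of the 9 were taken as the 2 with the highest Pearson r to it over 19 arrays, among 14208 others. Ttr was nearest to the liver plasma proteins Ahsg (r = 0.85, Spearman rho = 0.60) and Afp (r = 0.80, rho = 0.72). Serpina7 was nearest to Rnf144b and Ddi2 (0.93 each) and Slc16a10 to Slc22a21 and Ypel4 (0.97 each). Thra had Tro and Zfta (0.90 each), Thrb Tmem203 and Crybg2 (0.88 each), and Klf9 Zranb1 (0.86) and Gtf2b (0.80). For the remaining genes they were Polr2k (0.86) and Sod1 (0.85) for Thrsp, Shisal1 (0.81) and Lcn1 (0.80) for Dio1, and Spam1 (0.85) and Kash5 (0.84) for Dio3. All arrays enter each of these values, the near-identical pair included, and the arrays share their normalization.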

How the data were processed

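The deposited values are log2 signals, which the authors made with RMA (robust multi-array average, which corrects the background, equalises the arrays by quantiles and sums up each set's probes), per the submitters' processing notes (version not given in the sources used here). The method gives no detection call and compresses folds at both ends of the range. The platform annotation gave 20826 of 31042 probe sets 1 symbol, 436 several and 9780 none. A probe set shared by Ttr and another gene was not used. Of those with 1 symbol, 20758 took their RefSeq symbol (GRCr8) by gene ID. All 9 genes had a RefSeq promoter entry.

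1 mean per dose group was fitted to all 31042 probe sets that are not controls with limma 3.58.1 in R 4.3.3 (19 arrays, 15 residual and 2.78 prior degrees of freedom). P-values are two-sided moderated tests, adjusted after Benjamini and Hochberg over every probe set, threshold 0.05. The submitters compared vehicle with each dose; 50 against 15 mg/kg and the F test were added. The number of arrays limits the precision, and the spread behind the p-values is that between these samples, which may be technical. Correlations used values with group means removed and 100000 permutations, two-sided. All 19 arrays were shuffled freely, the near-identical pair included, and the removal of group means was not allowed for, so permutation p-values can be too small. None was computed without the arrays that stand apart. The fit was tested on simulated data.

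The 9 genes and the pathway and marker lists were chosen with earlier results of these data known. Named from the pathway list are the genes that passed in any comparison and the 3 others with the largest difference at 50 mg/kg. Tried were a filter at the median level, other variance priors, a replicate block, the array number as covariate or block, median centring, cyclic loess, array weights, tissue scores as covariates, the compared groups alone, the mean of a gene's probe sets, and each array left out. The fits without the arrays that stand apart, and the relations with marker lists, were chosen after the values were seen. Replicate numbers were checked for pairing: the deviations of same-numbered arrays correlated at 0.05 to 0.89 between vehicle and 0.1 mg/kg (0.89 for the near-identical pair), at -0.19 to 0.37 for 15 mg/kg, at -0.53 to 0.50 for 50 mg/kg and at -0.37 to 0.23 between 50 and 15 mg/kg. In no comparison was every pair over 0.1, so the numbers were not taken as pairs.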

Additional observations from a re-analysis of the deposited data

Results flagged for a closer look

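In 3 of 36 combinations of a gene and a dose group, 1 array lay farther from the rest than Dixon's 95% limit allows; chance gives about 1 in 20. Serpina7 was 12.06 on vehicle replicate 2, where the other 4 read 12.70 to 12.87 (gap over range 0.780, limit 0.71). Thrsp was 5.15 on the library labelled 0.1 mg/kg replicate 1, where the others read 4.27 to 4.51 (0.729, limit 0.71). Ttr was 14.63 on 15 mg/kg replicate 2, where the others read 14.54 to 14.55 (0.881, limit 0.829). The first and the second of these arrays are among those that stand apart by other measures.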

How the results depend on the processing

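Counts of calls moved with the setting. Of all probe sets, 499 passed at 50 mg/kg. The count was 171 with array number as a covariate, 57 with a block of early against late arrays, 921 with array weights, 229 with tissue scores, 216 without the arrays that stand apart plus that block, and 178 to 593 with 1 array left out (178 without 50 mg/kg replicate 1; over 1.5 times fewer also without 50 mg/kg replicates 2, 3 and 4 and vehicle replicates 1, 2, 4 and 5, at 301, 330, 230, 237, 253, 259 and 222). At 15 mg/kg, with 0 in the reported fit (limma; 3083 at an unadjusted p under 0.05), it was 4 above the median level, 8 with array number, 7 with the block, 13 with weights, 10 without the arrays that stand apart, 14 with the block as well and 2 with the compared groups alone. Of the 9 genes, 1 passed at 50 mg/kg with array weights and in both fits without the arrays that stand apart (Serpina7), and 1 in the F test without them. Of the pathway list, 1 passed at 15 mg/kg (Ugt2b1) in 6 settings. With the replicate block, though the numbers do not pair the arrays, 1 of the 9 passed at 50 mg/kg: Thrsp, 0.81 with an adjusted p of 0.0293. Thrsp and Dio3 lie under the median level and drop out of that filter.

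Between early and late arrays some differences changed sign, among them Slc16a10 at 50 mg/kg (0.78 and -0.75) and Dio1 at 50 mg/kg (-0.77 and 0.04). The early arrays hold 1 vehicle array and the late arrays 1 array at 50 mg/kg. Differences of the 9 genes that changed sign with the setting passed no test. With 1 array left out they ran, at 0.1 mg/kg, from -0.29 to 0.05 for Dio1, -0.06 to 0.06 for Dio3, -0.25 to 0.03 for Serpina7, -0.36 to 0.03 for Slc16a10 and -0.16 to 0.01 for Thra. At 15 mg/kg they ran from -0.21 to 0.03 for Klf9 and -0.04 to 0.07 for Thrb, and at 50 against 15 mg/kg from -0.30 to 0.00 for Slc16a10 and -0.14 to 0.05 for Thra. Other settings gave, at 0.1 mg/kg, 0.00 and 0.02 for Dio3 and 0.07 and 0.01 for Serpina7 (without the arrays that stand apart, and with the block too) and 0.10 for Thra (tissue scores). At 15 mg/kg they gave 0.01 for Klf9 and -0.01 for Thrb (mean of probe sets), and for Thrb -0.04 (weights, and both fits without the arrays that stand apart) and -0.06 (tissue scores). At 50 against 15 mg/kg they gave 0.03, 0.13 and 0.17 for Slc16a10 (array number, block, block without the arrays that stand apart) and 0.01 and 0.06 for Thra (weights, tissue scores). The cause was not tested. Limits are the 4 or 5 arrays a group, the early place of 4 of 5 arrays at 50 mg/kg, signals without detection calls, and animals and litters that the labels do not define.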
